A study of Mus musculus with 11 samples.

Results

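POU5F1 (also called OCT4) and POU3F1 (also called OCT6) are TFs of the POU family, and the regions described here are those at which peaks of both, and of none of the other 3 TFs examined, were listed in mouse epiblast stem cells (EpiSCs). They were chosen by measured values: a site was an EpiSC POU5F1 ChIP-seq peak on chromosomes 1 to 19 or X that overlapped, by at least 1 bp, an EpiSC POU3F1 peak of at most 2000 bp, and that overlapped no EpiSC peak of SOX2, ZIC2 or OTX2. The rule found 18741 sites among 62387 POU5F1 peaks, or 30.0%, in a series of 10 peak lists with 1003005 peaks on these chromosomes. EpiSCs of the 129/Sv strain were grown without feeder cells in medium that contained activin (20 ng/ml) and Fgf2 (10 ng/ml), and the EpiSCA cultures differed in that activin was withdrawn 18 h before harvest; these are called activin-free below. In both, the cells kept their own genes for all 5 TFs and were transiently transfected with a plasmid that expressed 1 TF carrying a C-terminal BLRP sequence, which is biotinylated by the BirA ligase made from the same plasmid, so that chromatin could be recovered on streptavidin. The CAG promoter of this plasmid is active in most cell types, and 1 library was listed for each TF in each culture, which leaves the spread between replicates unknown.

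POU proteins read DNA with 2 linked domains, a POU-specific domain and a POU homeodomain, which together bind the octamer sequence, and pairs of POU proteins can bind palindromic dimer elements known as MORE and PORE. POU5F1 maintains the pluripotent state in naive embryonic stem cells and in the epiblast, where it often binds beside SOX2. POU3F1 appears in the epiblast of the postimplantation embryo and in EpiSCs and promotes neural differentiation.

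The sequences below are 200 bp of the mm9 plus strand centered on the POU5F1 midpoint, read from the NCBIM37 assembly, which is the same build. The first 6 are shown because they had the highest scores by the lower score of the pair, the smaller of the POU5F1 score and the highest POU3F1 score at the site (the MACS scores, which rise as the p-value of a peak falls). Capitals mark the octamer ATGCAAAT, its variants ATGCATAT and ATGCTAAT, and MORE elements (2 copies of ATGCAT with 0, 1 or 2 bases between), on either strand. None of these 6 windows held any of these. In Cnot6l and Vps13b the window lay outside the highest-scoring POU3F1 peak of at most 2000 bp at the site. The midpoints of these POU3F1 peaks were 1849 and 2448 bp from those of POU5F1. Over the whole POU5F1 peak, 2 octamers were found at Dpp10, 1 at Cnot6l and none at the rest of the 6. The windows whose nearest coding genes were Creb5 and Etaa1 were tandem repeats, 96.5% and 98.9% identical to themselves at a shift of 29 and 24 bp, and the unit of the first held the word ATGCACAT.
Dpp10 intron, chr1:125697941-125698140: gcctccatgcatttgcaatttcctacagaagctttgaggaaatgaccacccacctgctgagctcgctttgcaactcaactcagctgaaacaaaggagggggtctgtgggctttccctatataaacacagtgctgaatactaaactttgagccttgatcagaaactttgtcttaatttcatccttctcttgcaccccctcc
Intergenic, 14.1 kb from a TSS of Creb5, chr6:53509147-53509346: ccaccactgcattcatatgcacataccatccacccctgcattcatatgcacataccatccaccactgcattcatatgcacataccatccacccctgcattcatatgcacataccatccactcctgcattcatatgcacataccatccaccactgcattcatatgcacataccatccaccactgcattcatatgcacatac
Cnot6l intron, chr5:96522868-96523067: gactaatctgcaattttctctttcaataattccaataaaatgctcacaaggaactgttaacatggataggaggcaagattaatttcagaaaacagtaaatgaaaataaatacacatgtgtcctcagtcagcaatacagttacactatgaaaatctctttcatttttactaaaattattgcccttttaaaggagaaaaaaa
Vps13b intron, chr15:35444905-35445104: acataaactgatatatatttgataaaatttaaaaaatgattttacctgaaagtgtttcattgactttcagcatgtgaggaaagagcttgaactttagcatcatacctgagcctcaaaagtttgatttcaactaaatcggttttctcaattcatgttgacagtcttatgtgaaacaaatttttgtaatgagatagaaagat
Intergenic, 378 kb from a TSS of Etaa1, chr11:18232035-18232234: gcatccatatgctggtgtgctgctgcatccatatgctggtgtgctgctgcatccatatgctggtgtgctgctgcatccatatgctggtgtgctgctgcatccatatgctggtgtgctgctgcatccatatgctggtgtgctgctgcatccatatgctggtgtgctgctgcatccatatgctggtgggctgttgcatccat
Intergenic, 45.6 kb from a TSS of Fign, chr2:63981574-63981773: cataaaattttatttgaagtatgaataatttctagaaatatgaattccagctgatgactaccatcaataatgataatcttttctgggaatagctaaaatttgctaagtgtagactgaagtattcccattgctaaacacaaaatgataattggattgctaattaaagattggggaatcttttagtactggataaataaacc
The 3 sites with the highest lower scores among those with a MORE element are shown next, since this element separates a dimer arrangement from a single octamer. All 3 matches had 2 bases between the copies and lay in stretches built from repeats of ATGT, ATGC or ATAC, and the capitals in the third run on into an ATGCATAT match.
Intergenic, 458 kb from a TSS of Epha3, chr16:63405710-63405909: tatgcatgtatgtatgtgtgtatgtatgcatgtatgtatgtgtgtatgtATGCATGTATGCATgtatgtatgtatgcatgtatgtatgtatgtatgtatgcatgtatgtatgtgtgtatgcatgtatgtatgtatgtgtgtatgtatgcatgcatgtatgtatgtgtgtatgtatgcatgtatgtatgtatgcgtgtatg
Prkg2 intron, chr5:99390736-99390935: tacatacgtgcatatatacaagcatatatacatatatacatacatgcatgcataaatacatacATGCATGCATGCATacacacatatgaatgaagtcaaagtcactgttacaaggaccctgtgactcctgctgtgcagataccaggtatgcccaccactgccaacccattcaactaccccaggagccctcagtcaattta
Nhedc1 intron, chr3:135038153-135038352: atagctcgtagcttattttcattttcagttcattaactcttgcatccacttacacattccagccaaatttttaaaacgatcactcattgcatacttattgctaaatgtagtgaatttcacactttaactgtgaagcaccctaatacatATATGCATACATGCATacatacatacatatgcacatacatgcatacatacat
The last 2, chosen after their values were seen, are those with the highest lower scores among sites that held the octamer in sequence without a repeated word (a word of 10 bases at 3 or more places of the window).
Gm10945 intron, nearest coding gene Oprm1, chr10:3593385-3593584: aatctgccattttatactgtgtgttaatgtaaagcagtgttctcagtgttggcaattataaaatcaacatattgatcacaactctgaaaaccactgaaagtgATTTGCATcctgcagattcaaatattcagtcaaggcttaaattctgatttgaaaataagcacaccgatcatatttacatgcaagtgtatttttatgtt
Zfp804b intron, chr5:6772787-6772986: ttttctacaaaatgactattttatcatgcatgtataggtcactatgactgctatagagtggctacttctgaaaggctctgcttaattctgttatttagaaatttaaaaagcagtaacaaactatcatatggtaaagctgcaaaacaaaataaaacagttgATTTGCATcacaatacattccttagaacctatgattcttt
The octamer lay within 100 bp of the POU5F1 midpoint by construction of the window, and in these 2 sites the POU3F1 midpoint was 16 and 24 bp away from that of POU5F1.

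The peak lists held between 62457 and 126908 peaks, with a lowest score of 50 in every list to the nearest whole number, and no read counts or coverage, so the depth of the libraries is unknown. The POU5F1 lists were the most unequal, with 62457 peaks in EpiSCs and 126908 in activin-free cells, whereas the POU3F1 lists held 112753 and 101989. Each share has its 95% interval by Wilson's method in parentheses, where only the error of counting sites is included. No peak was listed with the same start and end in both POU5F1 lists, and 1 was in both POU3F1 lists. None of the sites overlapped the coding exons of the 5 TF genes, where plasmid DNA could map. For comparison, 4026 POU5F1 peaks met a POU3F1 peak of at most 2000 bp and also a SOX2, ZIC2 or OTX2 peak (sites with an additional TF), 7646 met only POU3F1 peaks wider than 2000 bp, and 24333 overlapped no other TF (POU5F1 alone).

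Pairs of POU5F1 and POU3F1 peaks were without another TF about as often as POU5F1 peaks in general, with 82.3% (81.8 to 82.8%) against 81.3% (80.99 to 81.6%). Of the 22767 POU5F1 peaks with a POU3F1 peak of at most 2000 bp, 2217 were set aside for a SOX2 peak, 1777 for an OTX2 peak and 548 for a ZIC2 peak, some of them for more than 1. The 18741 sites had 18562 distinct POU3F1 partners (the highest-scoring peak of at most 2000 bp), 668 sites met more than 1 such peak, and 194 also met a POU3F1 peak over 2000 bp. At the limits of the rule, the widest partner measured 2000 bp and the narrowest POU3F1 peak left out at a POU5F1 peak measured 2001 bp. The shortest shared stretch was 1 bp, 148 sites shared less than 50 bp, and 112 peaks of POU5F1 alone had a POU3F1 peak within 50 bp, the closest of them 2 bp away. Most sites were far from these limits, with a median shared stretch of 834 bp (quartiles 667 and 1027 bp).

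The POU5F1 peaks of the sites had scores near the median of their list, and the POU3F1 peaks had scores above it. These values chose the members and are given as a description. The POU5F1 score ranged from 50.01 to 3230 with a median of 137, and the median over all POU5F1 peaks was 133. The partner's POU3F1 score ranged from 50.02 to 2319 with a median of 264, whereas the median over all EpiSC POU3F1 peaks of at most 2000 bp was 160. The POU3F1 score was the higher of the pair at 68.7% of sites (68.0 to 69.3%), but the scores come from separate libraries of unknown depth. The heights of the 2 peaks were weakly related, with a Spearman's rho of 0.13 across the 18741 sites, and only 672 sites (3.59%) had both scores above 500.

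The midpoints of the paired peaks lay close together. Their distance had a median of 124 bp with quartiles of 55 and 257 bp, 42.8% of sites had midpoints within 100 bp (42.1 to 43.5%), and 8.46% had midpoints over 500 bp apart (8.07 to 8.87%). With sonicated fragments of about 150 bp, the median distance was shorter than 1 fragment. At sites with an additional TF the median was 121 bp, close to that of the sites. Since overlapping peaks of limited width cannot be far apart, the rule itself bounds this distance.

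**Figure D1:**
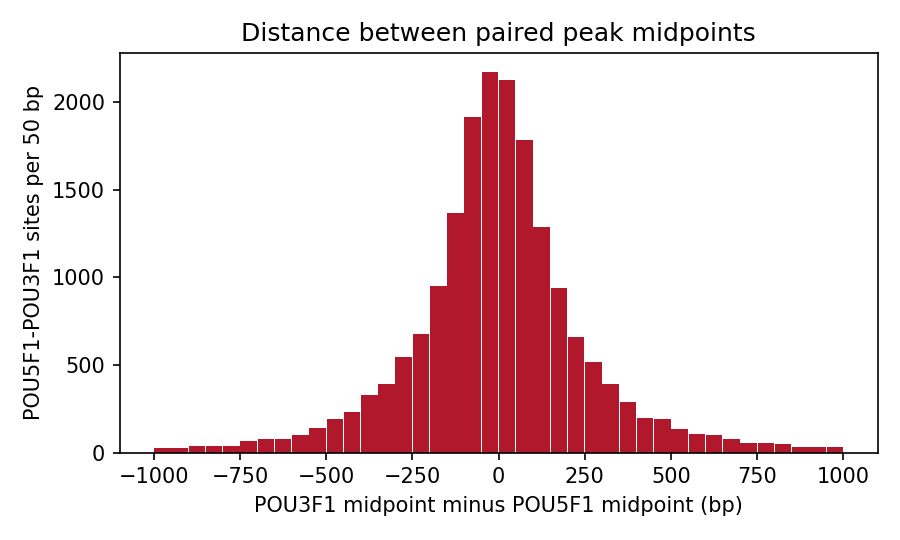
The number of POU5F1-POU3F1 sites (vertical axis) is plotted by the signed distance in bp from the POU5F1 midpoint to the midpoint of the partner POU3F1 peak (horizontal axis), in bins of 50 bp. The counts are highest next to 0 and fall on both sides alike, with a median distance of 124 bp regardless of sign.

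Most sites were listed again with both POU factors after activin withdrawal, in libraries that the rule had not used. A POU5F1 peak overlapped 99.4% of sites in activin-free cells (99.3 to 99.5%), compared with 98.3% of all EpiSC POU5F1 peaks. A POU3F1 peak overlapped 88.2% of sites (87.8 to 88.7%), compared with 50.6% of all POU5F1 peaks and 6.57% of POU5F1 alone (6.27 to 6.89%). The share was 89.2% at sites with an additional TF (88.2 to 90.1%) and 99.4% at peaks with wide POU3F1 peaks (99.2 to 99.5%), so that it was high wherever POU3F1 was listed in EpiSCs. Both were present at 87.8% of sites, against 50.3% of all POU5F1 peaks. The presence or absence of POU3F1 at a POU5F1 peak was therefore largely the same in the 2 cultures. Leaving the longer activin-free lists only as many of their highest-scoring peaks as the EpiSC lists had, a POU5F1 peak remained at 88.7% of sites (88.2 to 89.2%), against 77.1% of POU5F1 alone (76.5 to 77.6%) and 83.6% of all POU5F1 peaks.

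The other 3 TFs rarely appeared at the sites after activin withdrawal. An activin-free SOX2 peak overlapped 5.27% of sites (4.96 to 5.60%), against 10.7% of all POU5F1 peaks, which include those with SOX2 in EpiSCs, and 50.05% of sites with an additional TF (48.5 to 51.6%). It was more frequent at the sites than at POU5F1 alone (2.65%, 2.46 to 2.86%), which also lacked SOX2 in EpiSCs, and less so than at the peaks with wide POU3F1 peaks (6.92%, 6.37 to 7.51%). An activin-free OTX2 peak overlapped 5.87% (5.54 to 6.22%), against 11.6% of all POU5F1 peaks, 3.51% of POU5F1 alone (3.28 to 3.74%) and 6.72% of those with wide POU3F1 peaks (6.18 to 7.31%). For ZIC2 the numbers were 60 sites or 0.320% (0.249 to 0.412%), against 4.70% of all POU5F1 peaks and 0.921% of POU5F1 alone. The absence of these TFs in EpiSCs was part of the rule, and it was largely kept in the other culture. Activin-free SOX2 without OTX2 was listed at 898 sites, OTX2 without SOX2 at 1010 and both at 90.

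**Figure D2:**
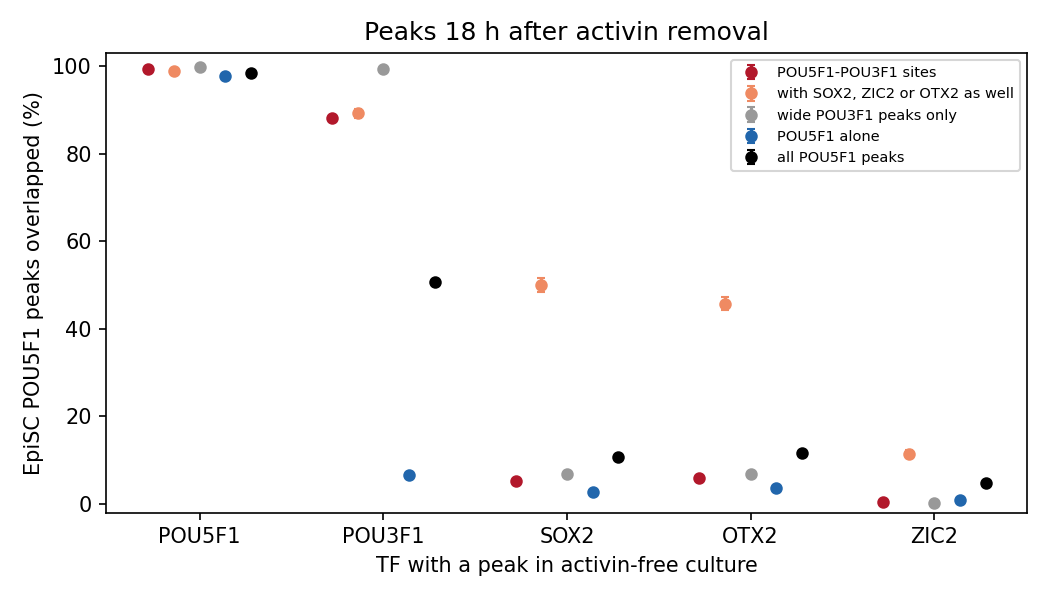
The share of EpiSC POU5F1 peaks (vertical axis, %) overlapped by a peak of each TF in activin-free cells (horizontal axis) is shown for the POU5F1-POU3F1 sites, the 3 groups compared and all POU5F1 peaks, as points with 95% Wilson intervals. POU3F1 separates the groups, with 88.2% at the sites and 6.57% at POU5F1 alone, and SOX2 and OTX2 are frequent only where an additional TF was present in EpiSCs.

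The full profile was kept at most sites. In activin-free cells 14614 sites, or 77.98% (77.4 to 78.6%), had both POU peaks and no SOX2, ZIC2 or OTX2 peak, compared with 37.5% of all POU5F1 peaks and 86.3% of those with wide POU3F1 peaks (85.5 to 87.1%). Another 1833 sites had both POU peaks and at least 1 of the other TFs, 1989 had POU5F1 and no other TF, and 72 had POU3F1 and no other TF. Neither POU factor was listed at 21 sites, 17 of them without any other TF. When the rule was applied to the activin-free lists themselves, 31071 of 126751 POU5F1 peaks met it (24.5%), and 64.6% of the EpiSC sites (63.9 to 65.3%) overlapped 1 of them, against 24.0% of all EpiSC POU5F1 peaks. Conversely, 38.6% of the activin-free sites overlapped an EpiSC site, and 47.1% overlapped any EpiSC POU5F1 peak. The EpiSC list was shorter, with 62387 POU5F1 peaks against 126751. The share that overlapped an EpiSC peak was not computed over all activin-free POU5F1 peaks. Whether the 47.1% is particular to the activin-free sites was therefore not tested.

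The score changed far more for POU5F1 than for POU3F1. At the 18631 sites with a POU5F1 peak in both cultures, the median POU5F1 score was 138 in EpiSCs and 657 in activin-free cells, and it was higher in the latter at 99.3% of sites. At the 16536 sites with a POU3F1 peak in both, the medians were 303 and 354, and the activin-free score was higher at 62.5% (61.7 to 63.2%). The activin-free POU5F1 list was also longer than that of EpiSCs, and the part that the depth of the library had in these scores was not tested. The order of the sites was largely kept, with a Spearman's rho between cultures of 0.80 for POU5F1 and 0.77 for POU3F1 over those sites, and the midpoints moved by medians of 89 and 83 bp.

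Whether POU3F1 was listed again followed the POU3F1 score in EpiSCs and hardly the POU5F1 score. When the sites were divided by partner score into 5 equal groups, 59.1% of the lowest group (scores up to 113) had an activin-free POU3F1 peak. The share was 86.0% in the next group, 96.8% in the middle one, 99.4% in the following one and 99.9% in the highest (547 to 2319). Ordered by POU5F1 score instead, it was 85.5% in the lowest group and between 87.5 and 89.7% in the other 4. The 2205 sites without an activin-free POU3F1 peak had a median partner score of 85.6 and a median partner width of 691 bp, compared with 303 and 1193 bp at the other 16536, while their POU5F1 scores were 121 and 139. The sites that lost POU3F1 were thus mainly those with the lowest POU3F1 peaks, near the score of 50 at which the lists end.

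**Figure D3:**
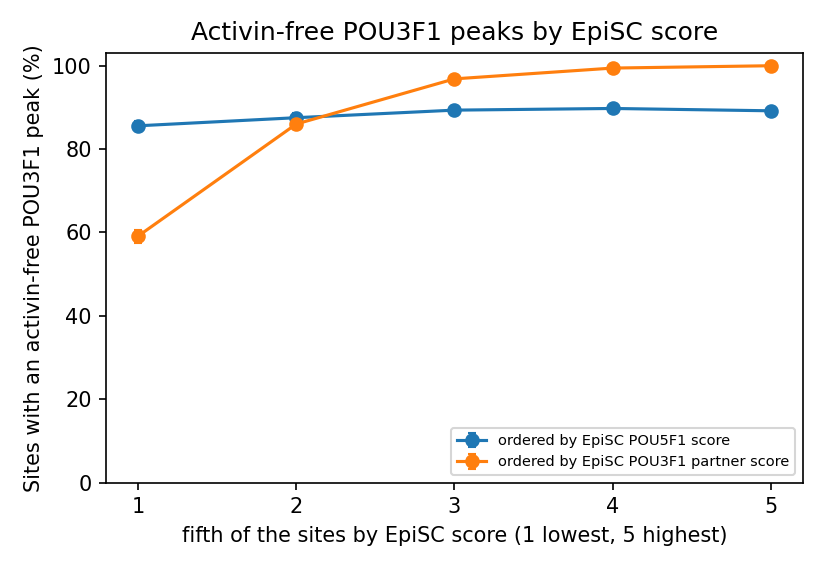
The share of POU5F1-POU3F1 sites with a POU3F1 peak in activin-free cells (vertical axis, %) is shown for 5 equal groups of the sites (horizontal axis, 1 lowest), ordered by the EpiSC POU5F1 score or by the score of the POU3F1 partner, with 95% Wilson intervals. The line for POU3F1 climbs from 59.1 to 99.9%, and that for POU5F1 stays between 85.5 and 89.7%.

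The octamer ATGCAAAT was found more often at the sites than beside them, but most sites lacked it. In 200 bp around the POU5F1 midpoint, 7.37% of sites held it (7.003 to 7.75%), compared with 1.78% of windows of equal size 1000 bp to either side, 6.44% of all POU5F1 peaks, 5.47% of POU5F1 alone (5.20 to 5.77%) and 1.76% of a regular grid of windows over the genome. Sites with an additional TF had 7.87% (7.08 to 8.75%) and peaks with wide POU3F1 peaks 6.58% (6.04 to 7.16%). In windows with neither a repeated word nor an alternating run of at least 20 bp of purine and pyrimidine, the octamer was found at 7.87% of sites (7.44 to 8.31%) and 7.73% of POU5F1 alone (7.25 to 8.23%), so that the difference between them was not detectable outside repeats. Over whole peaks, 20.4% of sites held at least 1 octamer, 2.69% held more than 1, and the largest number was 9. Of all POU5F1 peaks, 17.5% held at least 1 and 2.34% more than 1. The share with at least 1 was 12.97% at POU5F1 alone. It was higher than at the sites in the other groups, with 22.2% at sites with an additional TF and 23.6% at peaks with wide POU3F1 peaks. By median width, however, the POU5F1 peaks of these groups were wider than the sites, and those of POU5F1 alone were narrower. Per kb of peak, the number of octamers was 0.2212 at the sites and 0.2299 with an additional TF. It was 0.2235 with wide POU3F1 peaks and 0.1577 at POU5F1 alone. The density of octamers peaked at the midpoint. At the 3752 sites whose paired peaks together held exactly 1 octamer, it was about equally near to both midpoints. The medians were 214 bp to that of POU3F1 and 198 bp to that of POU5F1. Ties left out, 51.1% were nearer to POU5F1 (49.5 to 52.7%).

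**Figure D4:**
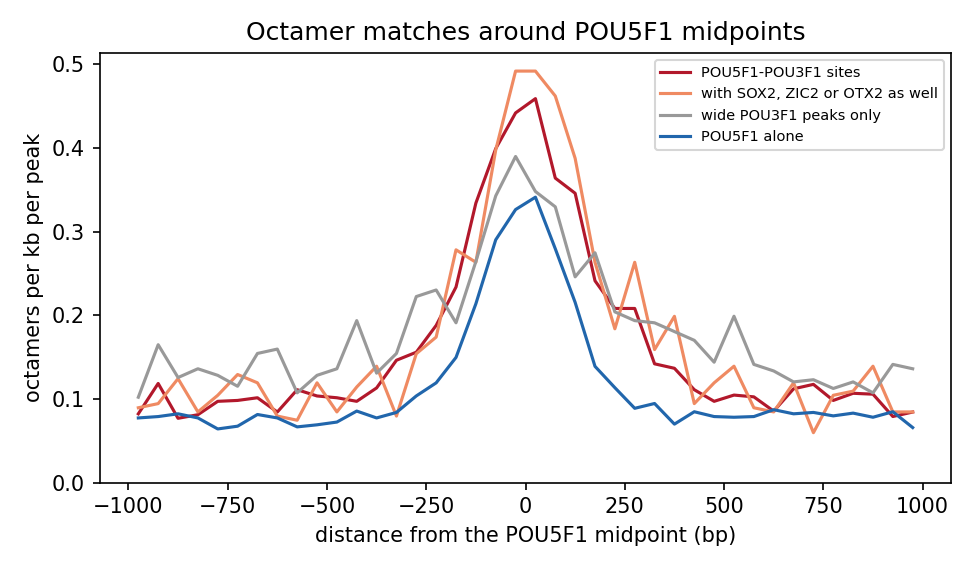
The density of octamer matches (vertical axis, matches per kb per peak) is plotted by distance in bp from the POU5F1 midpoint (horizontal axis, bins of 50 bp) for the POU5F1-POU3F1 sites and the 3 groups compared. All 4 lines rise toward the midpoint, and that of the sites runs above that of POU5F1 alone there, as do the shares of 7.37 and 5.47% in the central 200 bp.

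The variants of the octamer divided the groups differently. ATGCTAAT occurred at 3.30% of sites (3.05 to 3.56%) and 1.72% of POU5F1 alone (1.56 to 1.89%), in 0.960% of the windows beside the sites and in 0.784% of the grid. ATGCATAT was found at 11.1% of sites (10.6 to 11.5%) and at 16.8% of POU5F1 alone (16.3 to 17.2%), in 1.61% of the windows beside the sites and in 1.28% of the grid. Sites thus held more of ATGCTAAT than POU5F1 alone and less of ATGCATAT, whose letters alternate between purine and pyrimidine and which overlaps many MORE matches. At sites with an additional TF the shares were 3.701% for ATGCTAAT (3.16 to 4.33%) and 9.86% for ATGCATAT (8.98 to 10.8%). Peaks with wide POU3F1 peaks had 3.03% (2.67 to 3.44%) and 6.997% (6.45 to 7.59%). These intervals overlapped those of the sites, apart from ATGCATAT at peaks with wide POU3F1 peaks, where the share was lower than at sites. Any of the 3 forms was present at 20.3% of sites (19.7 to 20.9%), 20.6% of all POU5F1 peaks and 22.8% of POU5F1 alone (22.3 to 23.3%), against 4.30% of windows beside the sites. Without a repeated word or an alternating run, the shares were 16.6% at sites (16.0 to 17.2%) and 17.4% at POU5F1 alone (16.7 to 18.1%).

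Dimer elements were rare. A MORE element was found at 223 sites, or 1.19% (1.04 to 1.36%), compared with 1.48% of all POU5F1 peaks, 2.02% of POU5F1 alone (1.85 to 2.21%) and 0.0614% of windows beside the sites. Without a repeated word or an alternating run, it was at 0.181% of sites (0.125 to 0.264%) and 0.333% of POU5F1 alone (0.242 to 0.456%). Of the spacings, 2 bases between the copies occurred at 172 sites, none at 42 and 1 at 9, and in the grid these made up 0.0423, 0.0121 and 0.000783% of windows. PORE occurred at 1 site and in 0.00939% of the grid. Sites with MORE had a median POU5F1 score of 272 and a median POU3F1 score of 208, whereas sites with the octamer had 133 and 278. The POU3F1 score was the higher of the pair at 40.4% of the sites with MORE (34.1 to 46.9%) at 72.0% of those with the octamer (69.6 to 74.4%) and at 70.4% of the 14843 sites with neither MORE nor any octamer form (69.7 to 71.2%), whose median scores were 133 and 270. The share was 58.1% (56.1 to 60.1%) at the 2302 sites with ATGCATAT or ATGCTAAT but neither the octamer nor MORE. Their median scores were 169 for POU5F1 and 237 for POU3F1. Among these classes the share was lowest at the few sites with MORE. An activin-free POU3F1 peak was listed at 92.0% of sites with the octamer (90.4 to 93.3%) and 87.4% of sites with MORE (82.5 to 91.2%).

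Motifs of the TFs that the rule left out were no more frequent at the sites than beside them, apart from the words of SOX and SOX-POU. The SOX word ACAATG was held by 15.9% of sites and 13.6% of windows beside them, and by 12.6% of the grid. It was held by 14.5% of all POU5F1 peaks, 16.6% of those with wide POU3F1 peaks and 17.2% of sites with an additional TF. The core of the composite SOX-POU motif, TTGTNATGC, was found at 1.14% of sites (0.994 to 1.30%), in 0.590% of windows beside them and in 0.513% of the grid. This was close to its share of all POU5F1 peaks, 1.11% (1.03 to 1.19%). It was at 1.18% of peaks with wide POU3F1 peaks, 1.59% of sites with an additional TF and 0.867% of POU5F1 alone. For OTX the word GGATTA occurred at 7.54% of sites and in 7.53% of windows beside them (grid 7.98%), and for ZIC the word CAGCAGG at 1.65% and in 2.78% (grid 4.01%). The homeodomain word TAATTA was held by 17.5% of sites (16.9 to 18.0%) and 9.93% of windows beside them. The share was 8.11% at POU5F1 alone (7.78 to 8.46%) and 7.15% in the grid. TAATTA was also at 16.7% of sites with an additional TF, 19.9% of peaks with wide POU3F1 peaks and 13.2% of all POU5F1 peaks. Without a repeated word or an alternating run, the shares were 19.3% at sites and 12.2% at POU5F1 alone. TAATTA is made of A and T alone, and the windows of the sites had a median GC content of 32.5%, with 37% at POU5F1 alone. The part of base composition was not tested.

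Without prior choice of motif, most of the leading words that set the sites apart from their flanks held ATGC or its reverse complement GCAT. Among all 8-base words present in at least 1% of sites, those with the highest share in sites over that in flanking windows were TGCATGCA (4.98% against 0.608%), ATGTATGC (7.36 and 0.966%), TATGCATA (5.93 and 0.779%) and ATGCACAT (10.8 and 1.43%). Of the first 10 words, ATGTACAT (5.72 and 0.808%), CATACATA (14.9 and 2.13%) and TATGTGCA (8.41 and 1.25%) held neither ATGC nor GCAT. The rest of the 10 held at least 1 of them. Many of these words are phases of the same short repeats of ATGC, ATGT or ATAC. In the 14901 sites with neither a repeated word nor a run of at least 20 bp of alternating purine and pyrimidine, a selection made after the first words were seen, the leading words were GAATATGC (3.09% of sites and 0.507% of flanks), GAATATTC (2.29 and 0.433%), AATATGCA (6.93 and 1.34%), ATGCACAT (6.72 and 1.38%) and ATTATGCA (3.84 and 0.842%), and the octamer followed in the sixth place (7.87 and 1.74%). Of these 6 words, 5 hold ATGC or its reverse complement GCAT, the exception being GAATATTC. Further down the first 10, AATATTCA (8.47 and 1.98%) and TATGTGCA (5.05 and 1.18%) also lacked both, and the rest held at least 1 of them.

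Repeated sequence was less common at the sites than at POU5F1 alone and more common than in the groups with wide POU3F1 peaks or an additional TF, although for repeated words the interval of the last group overlapped that of the sites. An alternating run of at least 20 bp lay in 17.2% of site windows (16.7 to 17.8%), compared with 29.6% of all POU5F1 peaks, 47.7% of POU5F1 alone (47.1 to 48.3%), 11.3% of sites with an additional TF (10.3 to 12.3%), 8.45% of peaks with wide POU3F1 peaks (7.85 to 9.09%) and 4.39% of windows beside the sites. A repeated word was found in 13.3% of site windows (12.8 to 13.8%), 23.3% of all POU5F1 peaks and 36.5% of POU5F1 alone (35.9 to 37.1%), with 12.1% (11.2 to 13.2%) and 7.62% (7.05 to 8.24%) in the other 2 groups, against 11.6% beside the sites and 11.0% of the grid. The share with an alternating run rose from 11.2% in the lowest of 5 equal groups by POU5F1 score to 31.1% in the highest, and fell from 24.1 to 8.75% in groups by POU3F1 score. Sites in alternating sequence thus tended to have higher POU5F1 and lower POU3F1 scores.

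The 2486 sites with a repeated word differed in other ways too. They had a median POU5F1 score of 223 and a median POU3F1 score of 195, and the 16255 sites without one had 130 and 277. The share with MORE was 6.11% of the first (5.24 to 7.13%) and 0.437% of the second (0.346 to 0.551%), so that most MORE matches stood in repeated sequence, while the octamer was found in 4.55 and 7.80%. In all, 1609 sites (8.59%) shared 31 bases or more with the window of another site, and the most widely shared stretch, at 280 sites, was a run of ATAC repeats.

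The sites were concentrated in AT-rich regions. When POU5F1 peaks were divided into 5 equal groups by the GC content of their 1-Mb segment, the sites made up 41.0, 42.1, 35.3, 22.8 and 8.97% of the peaks from the lowest group to the highest, whereas POU5F1 alone made up 13.9% of the lowest (13.3 to 14.5%) and 62.1% of the highest (61.2 to 62.9%). Segments under 40% GC held 60.3% of sites (59.6 to 61.0%), 43.8% of all POU5F1 peaks, 23.5% of POU5F1 alone and 83.6% of peaks with wide POU3F1 peaks (82.8 to 84.5%), which were the most AT-rich in their surroundings. On the X chromosome 1104 of 2600 POU5F1 peaks were sites, or 42.5% (40.6 to 44.4%), and on the autosomes the share ran from 23.4% on chromosome 11 to 34.4% on chromosome 3. The POU5F1 peaks of the X chromosome also lay in segments of the lowest median GC content, 38.7%, and the part that GC content had in the chromosome's share was not tested.

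**Figure D5:**
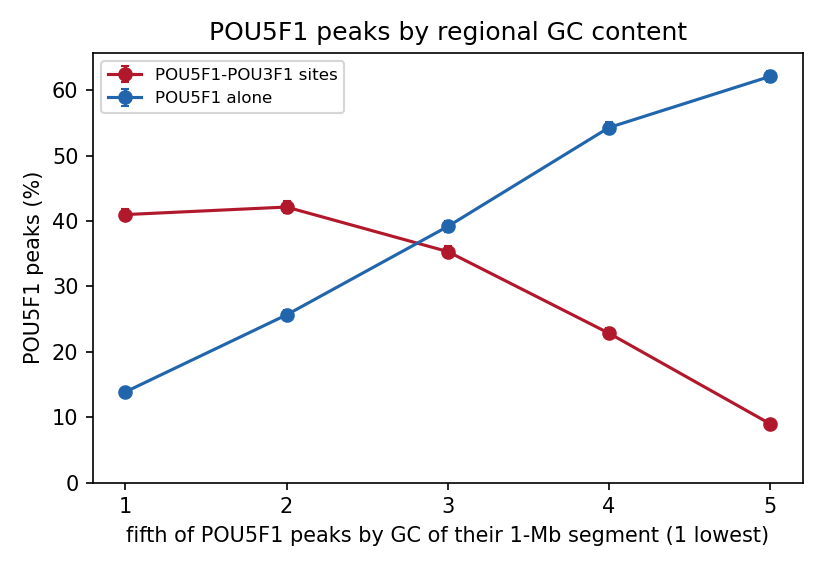
The share of EpiSC POU5F1 peaks (vertical axis, %) that were POU5F1-POU3F1 sites or POU5F1 alone is shown for 5 equal groups of the peaks by the GC content of their 1-Mb segment (horizontal axis, 1 lowest), with 95% Wilson intervals. The sites fall from 41.0 to 8.97% and POU5F1 alone rises from 13.9 to 62.1%.

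The sites were remote from gene starts. A share of 50.7% (49.9 to 51.4%) lay over 50 kb from the nearest transcription start site (TSS), compared with 42.5% of all POU5F1 peaks, 36.2% of POU5F1 alone (35.6 to 36.8%) 39.8% of sites with an additional TF (38.3 to 41.4%) and 56.9% of peaks with wide POU3F1 peaks (55.8 to 58.0%). Within 1 kb of a TSS lay 310 sites, or 1.65% (1.48 to 1.85%), compared with 2.52% of all POU5F1 peaks. The median distance was 51.3 kb, that of all POU5F1 peaks was 36.6 kb, and that of peaks with wide POU3F1 peaks was 65.7 kb. By position, 58.9% were intergenic, 39.4% intronic and 1.69% over exons, close to the 55.0, 43.0 and 1.97% of all POU5F1 peaks. Segments without a protein-coding gene start held 17.2% of sites and 12.6% of all POU5F1 peaks. The nearest SOX2 peak was a median of 10.4 kb away, the nearest OTX2 peak 18.2 kb and the nearest ZIC2 peak 30.6 kb. The order was the same at peaks with wide POU3F1 peaks, with 8.39, 25.5 and 43.4 kb. At POU5F1 alone SOX2 was the farthest, with 18.9 kb, against 10.3 kb for OTX2 and 11.5 kb for ZIC2.

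The sites were spread unevenly over the genome. Adjacent midpoints had a median gap of 48.4 kb, and 17.6% of gaps were under 10 kb. Segments of 1 Mb with a POU5F1 peak held a median of 5 sites, and 190 segments with 20 or more held 23.7% of all sites. These values were not compared with those of all POU5F1 peaks, so that clustering beyond that of the whole list was not tested. The segments with most sites were on chromosome 3 (118000001 to 119000000) with 36 among 73 POU5F1 peaks, on chromosome 16 (74000001 to 75000000) with 35 among 99, and on chromosome 12 (67000001 to 68000000) with 33 among 65. The first and second of these held 1 protein-coding gene start each, and the last held 2.

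The genes with most sites in their bodies were very long, and several encode proteins of the synapse. Lrp1b, which encodes a large receptor of the LDL receptor family, held 49 sites in 2058 kb (chromosome 2, 40450768 to 42509118), Ptprd, a receptor tyrosine phosphatase of synapses, 47, and Dlg2, a scaffold protein of the postsynaptic density, 46. Dmd (dystrophin) and Gpc5 (a glypican) had 39 each, Csmd3 36, and Il1rapl1 (an organizer of synapses) 34. Their densities of 17.3 to 29.7 sites per Mb exceeded the 7.42 sites per Mb over all protein-coding gene bodies, and the genes were selected for their counts. Of the POU5F1 peaks in the bodies, sites made up 39 of 119 in Dmd, 49 of 138 in Lrp1b and 39 of 80 in Gpc5. Over all POU5F1 peaks the share was 30.0%. The part that the density of POU5F1 peaks had in these site densities was not tested. At all 7 genes most sites were also listed with both POU factors in activin-free cells, from 34 of 39 in Dmd to 38 of 39 in Gpc5. The same held for 87.8% of all sites. All their sites were intronic apart from 2 at exons of Csmd3.

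Genes of the epiblast and of the neural plate were counted by whether a site lay within 100 kb of a TSS, as it did for 36.7% of the 22350 protein-coding genes; a site within the body was found for 11.0% of them. Of 18 epiblast genes, 9 had such a site, and the highest by lower score were those of Cdh2 (N-cadherin; POU5F1 score 1425 and POU3F1 score 740, intronic), Fgf5 (a growth factor and marker of the epiblast; 681 and 523, at the 3′ end of the gene) and Zic2 (404 and 377, in an intron of another gene, 92.8 kb from the TSS; the same site is counted for Zic5, at 77.4 kb). Among the 18 neural plate regulators, 11 had a site, with Pax2 (1459 and 641), Meis1 (573 and 958) and Pou3f3 (664 and 533) in the lead. Both shares were above that of all genes, but the lists are short and no test was made.

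Pluripotency genes and genes of the germ layers were counted in the same way. Of 17 shared pluripotency regulators 5 had a site, with Lin28b (540 and 440, and 6 sites in all), Gdf3 (572 and 146) and Rif1 (97.3 and 97.7) in the lead. Of 13 naive pluripotency genes, which are largely silent in EpiSCs, 6 had one, led by Tcl1 (294 and 1030), Dppa3 (572 and 146, the same site as that of Gdf3) and Nr0b1 (135 and 140). Of 16 primitive streak and endoderm genes 3 had a site, namely Sox17 (381 and 302), Gata6 (540 and 296) and Eomes (1372 and 235). In the nodal and activin pathway the count was 2 of 17, Acvr2a (300 and 1951) and Smad4 (85.7 and 112), the lowest share among the 8 lists.

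The POU genes themselves were included. Of 14 POU family genes 8 had a site within 100 kb, led by Pou3f3 (a neural regulator, 22.3 kb from the site), Pou4f2 (a regulator of retinal ganglion cells; 1492 and 410) and Pou2f1, which encodes OCT1 (231 and 951). Pou5f1 had 1 site 36.6 kb from a TSS with a POU5F1 score of 630 and a POU3F1 score of 75.6, and Pou3f1 had none. Of the 32 neuronal adhesion and synapse genes, 29 had a site within 100 kb of a TSS and 29 had one in the body, with the highest lower scores at Nrxn3 (1614 and 985) and Robo2 (849 and 634). These genes are long and have many TSSs, which raises the chance that a site is counted, and the list was written with the long genes of earlier results known.

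The 12 sites with the highest lower scores lay in introns or between genes. Their POU5F1 scores ran from 1407 to 2884, and the highest POU3F1 scores at the sites from 1455 to 2736. In the Dpp10, Cnot6l and Vps13b introns and at a site in an intron of Gm11867 on chromosome 4, the high POU3F1 score belonged to a peak wider than 2000 bp that lay beside the partner, whose own scores were 681, 56.6, 483 and 63.1. At the site 14.1 kb from Creb5 (chromosome 6, 53508257 to 53510236) the scores were 2884 and 2049 with midpoints 55 bp apart, and at that 378 kb from Etaa1 (chromosome 11, 18231371 to 18232899) they were 1691 and 1878 with midpoints 25 bp apart. All 12 had both POU peaks in activin-free cells, where the POU5F1 score was 3100 at each. This value was shared by 3111 of the 126751 activin-free POU5F1 peaks and exceeded by 355, so that it does not rank these sites by strength. An activin-free SOX2 peak was listed at 3 of them (Dpp10, Creb5 and Fign, the first also with ZIC2) and an OTX2 peak at 1, 94.7 kb from a TSS of Cast. Their windows held an ATGCATAT at the sites 123 kb from Xrcc6bp1 and in an intron of Glyat, an ATGCTAAT at the site in Gm11867 and a MORE element at the site 458 kb from Epha3, and none of the 3 octamer forms or MORE at the other 8.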

How the data were processed

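ChIP-seq was performed by the authors with biotinylated TFs recovered on streptavidin. Per the methods and labels, sheared DNA (about 150 bp) was amplified by 10 cycles of PCR, single-end reads were aligned to mm9 with Bowtie2, and peaks were called with MACS against input DNA with a band width of 150 bases. The input library was not used here. The deposited BED files give each peak's position and a score, the -log10 p-value scaled by MACS, and hold no reads; each list is 1 library.

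Overlaps, distances and motif counts were computed with Python 3.11.15, numpy 2.4.6 and scipy 1.17.1, and tested on simulated data. Coordinates are 1-based. TSSs (86803) and genes came from GENCODE vM1, and sequence from NCBIM37. Motifs were sought on both strands in 200 bp around POU5F1 midpoints, in windows centered 1000 bp to either side and in 255579 windows at steps of 10 kb. No test was possible without replicates, and shares carry 95% Wilson intervals.

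The members, motifs and gene lists were chosen with earlier results of these data known. Named sites were the 12 with the highest lower score of the pair, without chromosome 18; named genes were the 8 bodies and 3 segments with most sites, and the 3 genes of each of the 8 lists with the highest site within 100 kb; some items are not reported here. The repeated-word measure was added after the data were seen. Alternatives were a score of at least 100, reciprocal overlap, no width limit, a wider exclusion, equal list lengths, other windows and protein-coding TSSs.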

Additional observations from a re-analysis of the deposited data

How the results depend on the processing

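Of 40 recomputed values, 21 stayed within 1.5 times the main count or within the interval of the main share or median, and 19 moved, mostly by little. With a score of at least 100 in every list, the number of sites fell to 11221, and the activin-free shares were 99.8% for POU5F1 and 80.2% for both POU peaks without the other TFs, with a median midpoint distance of 118 bp. Requiring the shared stretch to cover 50% of each peak, the share with an activin-free POU3F1 peak was 89.9%, the share with both POU peaks and no other TF 79.4% and the median distance 102 bp. Without a limit on the POU3F1 width, the shares were 99.5% for POU5F1, 91.5% for POU3F1, 80.4% for both without the other TFs and 52.5% over 50 kb from a TSS, and the median distance was 179 bp, as wider peaks allow. With no other TF within 500 bp, 79.4% had both POU peaks and no other TF, and 51.5% were over 50 kb from a TSS. With activin-free lists no longer than the EpiSC lists, the share with POU5F1 was 88.7% and the share with both POU peaks and no other TF 72.0%. The share with an octamer was 12.3% in 400 bp, a wider window, and 7.80% in sites without a repeated word, a setting added after the data were seen. Counting protein-coding TSSs only, which are fewer, 68.0% of sites were over 50 kb away. Where no cause is named, the cause was not tested. No paired analysis was possible because each TF had 1 library in each culture. The peak lists end at a score of 50, so that a TF counted as absent may be present below it.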
